A study of Mus musculus with 35 samples.

Results

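Cardiac fibroblasts (CFs) treated with IL-17 were transfected with either of 2 small interfering RNAs against the same transcript, IAMP-siR-1 (siR-1) or IAMP-siR-2 (siR-2), and the siRNAs were compared directly with each other across all genes. The comparison uses 6 of the 35 libraries of the series, 3 per siRNA, all from the IL-17 table. Its members were chosen by the sample names alone. A further 3 libraries of the same table, transfected with a nontargeting siRNA (Scrambled), give the level without knockdown. The cells of all 9 libraries came from hearts of adult mice, attached to collagen within hours of enzymatic isolation, were cultured in high-glucose medium with serum, and received siRNA for 24 h and then IL-17 for a further 24 h. The mice were 8 weeks old, and animals of both sexes were used in the study. The strain, the sex behind each library, pooling of animals and whether cultures were separate were not given for these CFs in the sources used here, so the p-values below measure the spread between these libraries, which may be technical. The same pair of siRNAs in untreated CFs and in CFs given TGF-β, 6 libraries each, is set beside the IL-17 result.

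An siRNA is loaded into Argonaute, and its guide strand directs the cleavage of a fully complementary transcript. Like a microRNA, a guide can also lower other transcripts through short matches, mostly in 3′ UTRs, to the bases near its 5′ end that are called the seed. A pair of siRNAs against different places of a transcript therefore shares the intended target and differs in sequence. IL-17 signals in fibroblasts through its receptor, the adaptor ACT1 and TRAF proteins to NF-κB, C/EBP factors and mRNA-stabilizing proteins. Its known fibroblast targets are IL-6, neutrophil-attracting CXC chemokines, CCL20, the colony-stimulating factors and matrix metalloproteinases. IAMP is a micropeptide encoded by the mouse gene 4930523C07Rik.

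The 9 libraries held 114219738 to 118812722 estimated counts each, a range of totals that leaves little difference in depth between groups. A value of 18 estimated counts, about 3 read pairs, was taken as the floor of detection, and 16719 to 17336 genes lay above it in a library. The 10 highest genes took 6.10% to 7.19% of a library and mitochondrial genes 2.28% to 2.55%. No pair of libraries held identical values. Between libraries of the same group the median chi-square per gene was 0.605 to 0.856, against 0.455 from counting error alone, and between a siR-1 and a siR-2 library it was 11.5 to 13. Levels below are normalised CPM, counts scaled to a common library size, which do not correct for transcript length. They are compared between libraries, for single genes or for sums over a list. Abundant and long transcripts weigh most in such sums.

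IAMP itself was reduced by both siRNAs and somewhat further by siR-2. Its level was 18.5, 20.8 and 16.8 CPM in the Scrambled libraries, 2.34, 2.88 and 2.54 CPM with siR-1, against 1.86, 1.66 and 1.65 CPM with siR-2. The 3 groups did not overlap. Against Scrambled, the log2 fold change of 4930523C07Rik was -2.85 with siR-1, against -3.44 with siR-2, from the same Scrambled libraries. The difference between the siRNAs, siR-2 minus siR-1, was -0.58 (SE 0.111, adjusted p = 0.000306) in edgeR (quasi-likelihood F test, p-values adjusted by Benjamini-Hochberg), which gave every adjusted p below. This lay just inside the size threshold of a 1.5-fold difference, so 4930523C07Rik was not called. Leaving out siR-1 replicate 1 moved it past the threshold, at -0.65, and leaving out siR-1 replicate 2 brought it to -0.50. The estimated counts behind these levels were 260, 318 and 283 with siR-1, against 214, 195 and 191 with siR-2. In untreated and TGF-β-treated CFs the same difference was -0.72 and -0.41.

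A gene was called when its adjusted p was at most 0.05 and its difference at least 1.5-fold in either direction. Between the siRNAs under IL-17, 1208 genes were higher with siR-2 (6.07% of the 19906 tested) and 1914 were lower (9.62%). Without the size threshold 9192 genes (46.2%) had an adjusted p of at most 0.05. Among the called genes, 452 were at least 2-fold higher and 832 at least 2-fold lower with siR-2, and 106 and 141 differed at least 4-fold. The groups did not overlap for 3029 of the 3122 called genes, and for 54% of all genes tested. The median log2 fold change over all genes tested was -0.025. Protein-coding genes made up 1068 of the higher and 1648 of the lower genes.

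The 12 largest falls with siR-2, among called genes of at least 5 CPM, ranged from 4.32-fold to 7.95-fold. Nrk, a serine/threonine kinase, was at 18.8, 18.3 and 17.7 CPM with siR-1, against 2.11, 2.71 and 2.07 CPM with siR-2, while the Scrambled libraries stood at 22, 19.6 and 21.1 CPM. The log2 fold change of Nrk was -2.99 (SE 0.0949, adjusted p = 1.19e-13). Scrambled and siR-1 libraries were thus close to each other and all siR-2 libraries far below. Cemip, a hyaluronan-degrading protein, fell 6.34-fold, from 894 ± 44.2 to 141 ± 2.41 CPM (SD, n = 3 each), with a log2 fold change of -2.66 (SE 0.0357, adjusted p = 6.71e-18). Cd109, a GPI-anchored coreceptor that dampens TGF-β signalling, was at 143, 145 and 136 CPM with siR-1, at 23.9, 23.7 and 24.3 CPM with siR-2 and at 136, 143 and 140.3 CPM with Scrambled. Its siR-2 libraries lay far below both other groups, with a log2 fold change of -2.56 (SE 0.0359, adjusted p = 8.87e-18). Prkar2b, a regulatory subunit of protein kinase A, stood at 313, 316 and 298 CPM with siR-1, at 72.7, 70.9 and 70.7 CPM with siR-2 and at 143, 146 and 144 CPM with Scrambled, so the Scrambled libraries lay between the siRNAs.

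The other 8 of the 12 largest falls had log2 fold changes from -2.72 to -2.18. They were Piezo2, a mechanically gated ion channel, Avpr1a, a vasopressin receptor, Tmem260, Amot, a scaffold of the Hippo pathway, Chp1, a calcium-binding partner of sodium-proton exchangers, Tmem47, Ptp4a1, a phosphatase, and Dram1, a lysosomal p53 target. For Avpr1a the values were 17.8, 16.9 and 16.6 CPM with siR-1, at 2.93, 2.29 and 3.17 CPM with siR-2 and at 5.81, 5.29 and 6.06 CPM with Scrambled, so that both siRNAs lay away from Scrambled and on opposite sides of it. Ptp4a1 shares 94.6% of its exonic bases with another annotated gene of the same symbol and Tmem260 shares 18.6% with a neighbour, so reads could be split between them.

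The 12 largest rises ranged from 3.73-fold to 7.46-fold. Idh1, the cytosolic NADP-dependent isocitrate dehydrogenase, was at 38.5, 38.5 and 38.6 CPM with siR-1, at 245, 263 and 251 CPM with siR-2 and at 91.5, 87.2 and 90.8 CPM with Scrambled. Its log2 fold change was 2.71 (SE 0.0341, adjusted p = 4.81e-18), with Scrambled between the siRNAs. Capza2, a subunit of the actin-capping protein, was at 76.8, 73.9 and 76.8 CPM with siR-1, at 341, 348 and 337 CPM with siR-2 and at 224, 219 and 233 CPM with Scrambled, a log2 fold change of 2.17 (SE 0.0313, adjusted p = 8.87e-18). Here too the Scrambled libraries lay between. Cd55, an inhibitor of complement convertases, differed the other way round: Scrambled at 60.9, 53.9 and 57.3 CPM and siR-1 at 47.9, 44.7 and 47.5 CPM were near each other, and siR-2 stood at 234, 223 and 219 CPM. The log2 fold change of Cd55 was 2.27 (SE 0.044, adjusted p = 3.04e-16).

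The remaining rises among the top 12 had log2 fold changes from 1.9 to 2.9. They were Brms1, a component of histone deacetylase complexes, Dio2, the deiodinase that activates thyroid hormone, Itgb8, an integrin subunit that activates latent TGF-β, Alpl, the tissue-nonspecific alkaline phosphatase, Ackr3, a scavenging receptor for CXCL12, Egr3, an immediate-early transcription factor, Pde7b, a cAMP phosphodiesterase, Serpinb1a, an inhibitor of neutrophil proteases, and Arl2bp. Brms1 spread widely between its siR-2 libraries, at 7.64, 26.3 and 21.9 CPM against 1.86, 3.14 and 2.48 CPM with siR-1, with 2.9 (SE 0.632, adjusted p = 0.00928), and 79% of its exonic bases overlap another gene. Dio2 was tighter, at 2.04, 1.48 and 1.67 CPM with siR-1, at 12.9, 10.5 and 11.6 CPM with siR-2 and at 1.87, 2.2 and 1.89 CPM with Scrambled. In 11 of the 12 rises and 11 of the 12 falls the Scrambled mean lay between the means of the siRNAs. For Dio2 and Cd109, for instance, it did so although the Scrambled and siR-1 libraries overlapped. These genes were picked for their large differences, and among all called genes this place of Scrambled was less common. Of the 1208 genes called higher, Scrambled lay between in 717, was lowest in 334 and highest in 157. Of the 1914 called lower, it lay between in 914, was highest in 884 and lowest in 116.

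**Figure D1:**
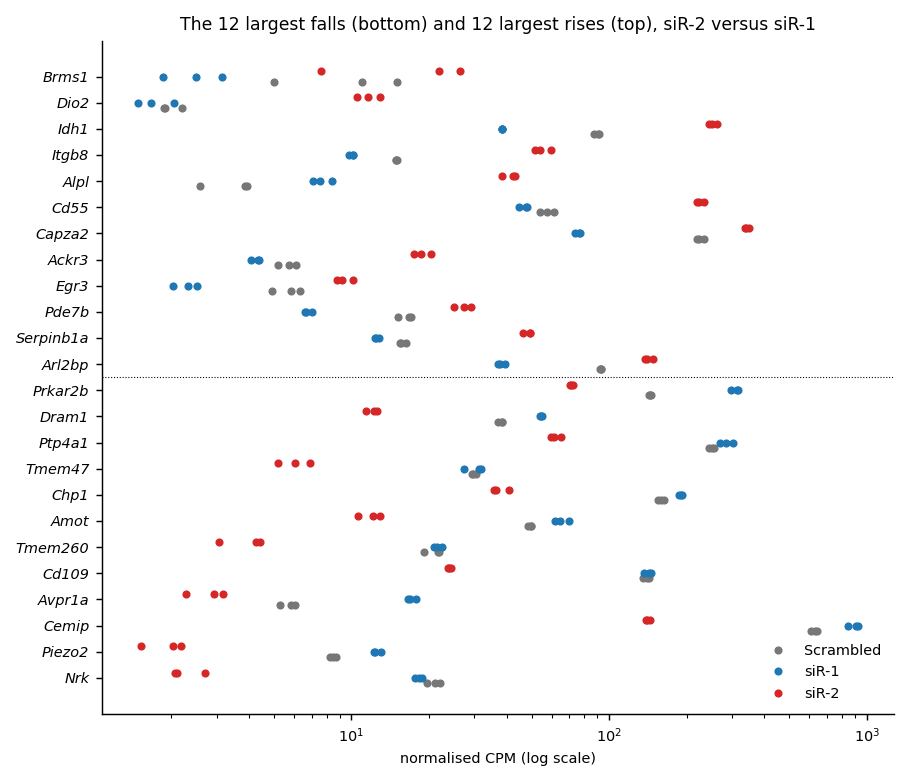
Level of the 12 genes with the largest falls (bottom) and the 12 with the largest rises (top) in each of the 9 IL-17 libraries, in normalised CPM on a log axis, with 3 points for each of Scrambled, siR-1 and siR-2. The siR-2 points of Nrk lie near 2 CPM and those of its other groups near 20, and for Idh1 the Scrambled points lie between siR-1 near 39 and siR-2 near 250.

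The 3′ UTRs of the genes that differed between the siRNAs held different short words. All 16384 heptamers were counted on the sense strand of the longest annotated 3′ UTR of 14853 tested genes (GENCODE vM21, at least 50 bases) and ranked by how far their share among called genes exceeded that among genes not called. Among the genes lower with siR-2 the word ACAATTC ranked first: 314 of 1632 UTRs held it, 19.2% (Wilson 95% interval 17.4% to 21.2%), against 6.22% of 12160 genes not called, 5.37% of 1061 genes higher and 7.59% of all. GTAATAT ranked first among the genes higher with siR-2: 176 of 1061 UTRs held it, 16.6% (14.5% to 18.9%), against 8.08% of genes not called, 7.78% of genes lower and 8.66% of all. The words in second place, CAATTCA (17.2% against 6.67%) and TAATATA (21.8% against 12.8%), overlap the first ones by 6 letters. Heptamers were ranked with the values in view, so these shares are descriptions without a test. Their intervals do not allow for the choice of each word as the first of 16384.

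Both words lie in the 3′ UTR of IAMP. In its transcript of 5652 bases, ACAATTC starts at 1064, 2166 and 3377 and GTAATAT at 1268 and 1793, all in exon 3 of 3. The deposited columns of siR-2 and siR-1 carry a number in their names, whose meaning is not stated in the sources used here, and the first ACAATTC and the first GTAATAT start 9 bases after the numbers of siR-2 and siR-1, respectively. The guide sequences were not used here, and whether either guide has a seed complementary to these words was not tested. Windows of 29 bases around the words follow, 5′ to 3′ in the sense of the transcript and in GRCm38, with the heptamer in capitals. The IAMP windows show the words in the common target, and the others show them in genes of the 12 largest falls and rises, each in the 3′ UTR of the last exon.

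IAMP, chr1:160075609-160075637, plus strand: gcggcgtgtagACAATTCttactctgtct
Nrk, chrX:139008762-139008790, plus strand: cttgagtgtttACAATTCaaattactttt
Avpr1a, chr10:122452493-122452521, plus strand: acattgtttctACAATTCagtgtatacat
Cd109, chr9:78715222-78715250, plus strand: aagcacgtaaaACAATTCacccaatcttt
Chp1, chr2:119586639-119586667, plus strand: aaggtgtgtaaACAATTCtttagtaaata
Dram1, chr10:88324259-88324287, minus strand: agagcacttatACAATTCaattcatagtg
Prkar2b, chr12:31958676-31958704, minus strand: ttaaaggaggaACAATTCccaaaacagaa
IAMP, chr1:160075813-160075841, plus strand: cacgcagccatGTAATATatatttttgct
Itgb8, chr12:119162878-119162906, minus strand: agcactttattGTAATATataacttattt
Cd55, chr1:130439112-130439140, minus strand: catattcttttGTAATATttagataaacc
Capza2, chr6:17666213-17666241, plus strand: taaggcagattGTAATATatatataatcc
Egr3, chr14:70082284-70082312, plus strand: acaaaccagatGTAATATattttgtggat

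Of the 12 largest falls, 8 held ACAATTC and 1 held GTAATAT, and of the 12 largest rises 4 held GTAATAT and none held ACAATTC. The median 3′ UTR was 1522 bases long in genes lower with siR-2, 1470 in genes higher and 1285 in genes not called. Per kilobase of UTR, ACAATTC occurred 0.108 times in the lower genes and 0.0395 times in genes not called, and GTAATAT 0.104 times in the higher genes and 0.0533 times in genes not called. Among UTRs of 2456 bases or more, ACAATTC was in 36.7% of lower and 15.1% of uncalled genes, and among those of at most 596 bases in 5.19% and 0.864%. The reverse complements, which read the same letters on the other strand, stood close to the background, GAATTGT in 12.9% of lower and 11.4% of uncalled genes and ATATTAC in 8.48% of higher and 7.12% of uncalled genes. By exact match to the whole heptamer, no mature mouse microRNA of 1738 in RefSeq had a seed (bases 2 to 8) complementary to either word. Other kinds of match were not examined, and a part of microRNAs was not tested.

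Genes with a word were also compared by contrast, among genes of at least 1 CPM. Both words were picked from the IL-17 calls between the siRNAs. The direction of the IL-17 medians between the siRNAs was set by that choice, and they add no support to it. Those with 1 ACAATTC (841 genes) had a median log2 fold change of -0.28 between siR-2 and siR-1, those with 2 or more (85 genes) of -0.41, and those without (11082 genes) of 0.029. Against Scrambled, the median of genes with 2 or more was -0.47 with siR-2 and -0.14 with siR-1. Genes with 1 GTAATAT (944) had a median of 0.097 between the siRNAs, those with 2 or more (145) of 0.25, and those without of 0.0034. Here the median of genes with 2 or more against Scrambled was -0.26 with siR-1, against 0.0052 with siR-2. The median of genes with 2 or more ACAATTC was thus below Scrambled with both siRNAs, and further below with siR-2. With siR-1, genes without ACAATTC had a median of -0.013. For genes with 2 or more GTAATAT the median was below Scrambled with siR-1 only. These comparisons share the Scrambled libraries and reuse the siRNA libraries from which the words were picked. The medians against Scrambled therefore add no independent support either. In the untreated table the same words ranked first, in 20.0% of lower against 5.97% of uncalled genes and in 17.4% of higher against 8.01% of uncalled genes. In the TGF-β table ACAATTC ranked second, in 15.0% of lower against 7.28% of uncalled genes, and GTAATAT ranked 24th, in 16.5% of 133 higher and 8.58% of uncalled genes. Genes with 2 or more GTAATAT were not below Scrambled with siR-1 in that table (median 0.040). The part of these words in the gene differences reported here was not tested.

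**Figure D2:**
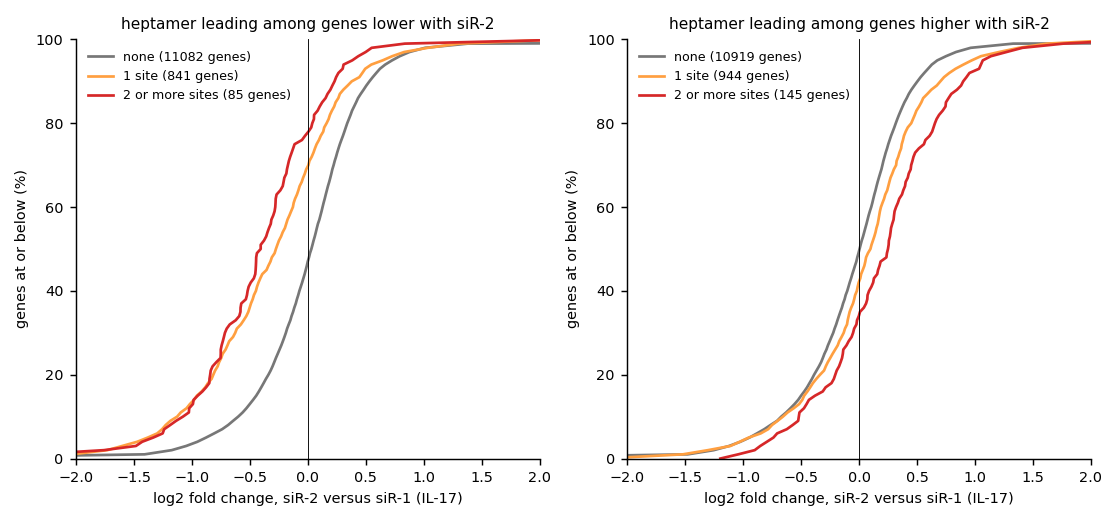
Cumulative distribution of the log2 fold change between siR-2 and siR-1 under IL-17, in percent of genes, for genes whose 3′ UTR holds no, 1, or 2 or more copies of the heptamer that leads among lower genes (left) or among higher genes (right). On the left the curves with a copy lie to the left of the curve without (medians -0.28 and -0.41 against 0.029), and on the right they lie to its right (0.097 and 0.25 against 0.0034). The heptamers were picked from the calls of this same contrast, which set the direction of these shifts.

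The inflammatory genes did not move as a block between the siRNAs. Il6, the central acute cytokine of fibroblasts, was at 278, 251 and 252 CPM with Scrambled, 515, 498 and 542 CPM with siR-1, against 793, 744 and 779.9 CPM with siR-2, so that the 3 groups formed separate steps. The difference between the siRNAs in Il6 was 0.57 (SE 0.0402, adjusted p = 2.67e-09), just inside the size threshold, and it passed without siR-1 replicate 3 (0.60), without siR-2 replicate 2 (0.60) or with no filter on low counts (0.59). Mmp3, the stromelysin, was nearly level between the siRNAs, at 1489, 1424 and 1556 CPM and 1606, 1598 and 1682 CPM, with a log2 fold change of 0.13 (SE 0.0407, adjusted p = 0.0159), far inside the threshold. The Scrambled libraries held 398, 396 and 441 CPM of Mmp3. S100a8, a calcium-binding alarmin, was scarcely detected, with 16, 9 and 0 estimated counts in the Scrambled libraries, 42, 37 and 25 with siR-1, against 103, 67 and 84 with siR-2. Its log2 fold change of 1.22 (SE 0.589, adjusted p = 0.106) did not pass the test, though the groups did not overlap. It passed in the 6 knockdown libraries alone (adjusted p = 0.00766) and without Scrambled replicate 3 (adjusted p = 0.0151).

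Of 22 chemokines tested, 4 were higher with siR-2 (18.2%) and 7 lower (31.8%), with a median log2 fold change of -0.55. For this and every gene list below, the shares among all genes tested were 6.07% higher and 9.62% lower. Cxcl1, which attracts neutrophils through CXCR2, was at 342, 310.3 and 308 CPM with Scrambled, 624, 607 and 651 CPM with siR-1, against 203, 192 and 197 CPM with siR-2. The siRNAs thus lay on opposite sides of Scrambled, and the log2 fold change between them was -1.67 (SE 0.0395, adjusted p = 3.59e-15). Cxcl5, of the same receptor class, was at 2688, 2529 and 2717 CPM with siR-1, against 1503, 1380.5 and 1511 CPM with siR-2, both above the 1021, 957 and 1004 CPM of Scrambled, with -0.85 (SE 0.0375, adjusted p = 7.43e-12) between the siRNAs. Cxcl3, another ligand of that class, went the other way, at 6.75, 6.97 and 7.63 CPM with Scrambled, 38.9, 35.1 and 39.9 CPM with siR-1, against 67.9, 62.3 and 66.5 CPM with siR-2. The difference of Cxcl3 was 0.79 (SE 0.0576, adjusted p = 4.54e-09). The 3 CXCR2 ligands named here thus did not share a direction between the siRNAs.

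Ccl20, which recruits CCR6-bearing lymphocytes, was at 5.73, 6.04 and 6.23 CPM with Scrambled, 45.4, 44.5 and 43.6 CPM with siR-1, against 11.5, 10.9 and 12 CPM with siR-2. Both siRNA groups lay above Scrambled and siR-1 far above siR-2, with -1.95 (SE 0.0592, adjusted p = 6.8e-14) between them. Ccl11 (eotaxin-1), at 0.609 ± 0.187 and 3.3 ± 0.345 CPM (SD, n = 3 each), and Ccl8, at 2.7 ± 0.398 and 7.69 ± 1.18 CPM, were higher with siR-2, by 2.43 and 1.51. The other chemokines called, chosen after their values were seen, were Cxcl14 (1.07), Cxcl12 (-1.08), Ccl9 (-0.95), Ccl17 (-0.87) and Cx3cl1 (-0.71). Summed over the whole list, chemokine CPM was 6027 to 6376 with siR-1, 3737 to 3966 with siR-2 and 3728 to 3804 with Scrambled, so the siR-2 and Scrambled sums overlapped and siR-1 stood apart.

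Of 20 cytokines tested, 5 were higher with siR-2 and 5 lower (25% each, median log2 fold change -0.093). Il33, a nuclear alarmin of the IL-1 family, was at 8.33, 8.08 and 8.44 CPM with siR-1, at 31.7, 29.4 and 26.9 CPM with siR-2 and at 7.95, 6.89 and 6.75 CPM with Scrambled. Only its siR-2 libraries stood apart, with 1.82 (SE 0.079, adjusted p = 6.17e-12). Tnfsf15, a ligand of death receptor 3, was at 69.4, 74 and 72.6 CPM with siR-1, at 187, 165 and 170.1 CPM with siR-2 and at 38, 37.4 and 38.8 CPM with Scrambled, a further stepwise order, with 1.27 (SE 0.0425, adjusted p = 2.23e-13). Of the colony-stimulating factors, Csf2 and Csf3 were lower with siR-2, while Csf1 (M-CSF) had a log2 fold change of -0.067. Csf2 (GM-CSF) was at 11.8, 12.4 and 12 CPM with siR-1, at 4.08, 4.58 and 4.3 CPM with siR-2 and at 2.3, 2.57 and 2.25 CPM with Scrambled, a log2 fold change of -1.48 (SE 0.0934, adjusted p = 7e-10). Csf3 (G-CSF) was at 2.2, 1.82 and 2.34 CPM with siR-1, against 0.729, 0.649 and 1.09 CPM with siR-2, with -1.37 (SE 0.254, adjusted p = 0.00024). Among the others, named after their values were seen, Il18 (1.34), Il11 (0.93) and Tnfsf11 (0.77) were higher and Tnf (-2.44) and Tslp (-1.04) lower. Tnf rests on 70 to 106 estimated counts with siR-1, against 10 to 24 with siR-2. Il12a was called lower too, but it was at 7 to 12 estimated counts with siR-1, against 0 with siR-2, all under the floor, and no fold is given.

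**Figure D3:**
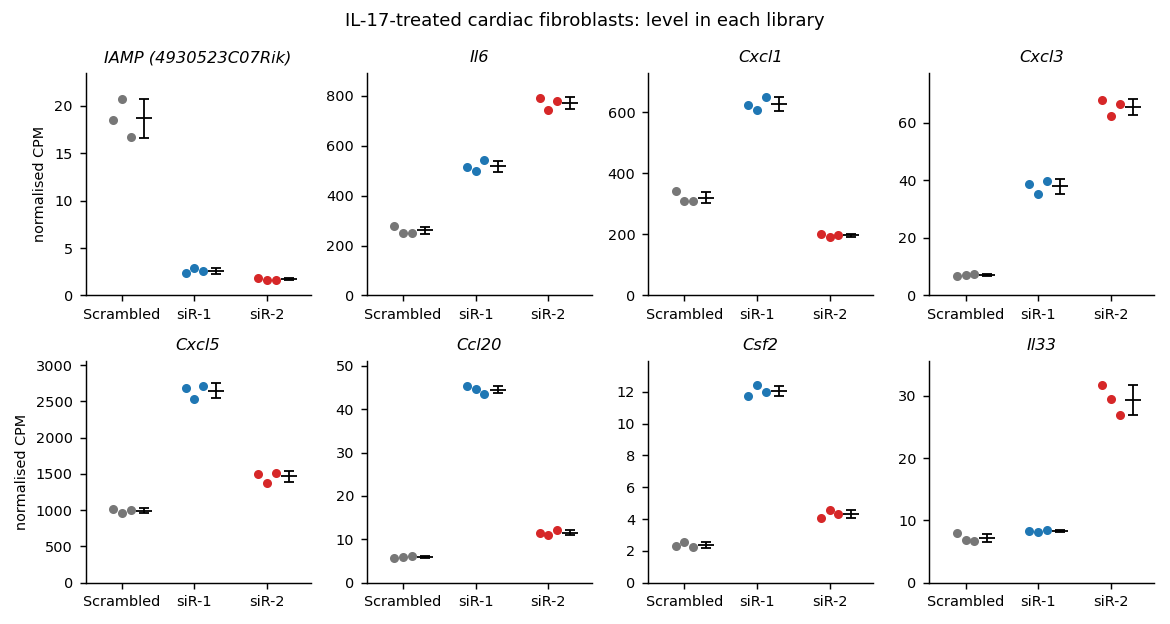
Normalised CPM of IAMP and of 7 inflammatory genes in each IL-17 library, 3 points per group, with a bar for the mean and SD (n = 3) beside them. Cxcl1, Cxcl5, Ccl20 and Csf2 are highest with siR-1, Il6, Cxcl3 and Il33 are highest with siR-2, and IAMP is highest with Scrambled.

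Of 25 components of IL-17 signalling tested, 2 were called lower with siR-2 (8%, near the share of all genes) and none higher (median 0.12). By the adjusted p alone, with no size threshold, 12 rose and 4 fell. At an unadjusted p under 0.05, 14 had positive and 4 negative values, and DESeq2 also called 2 lower and none higher. The lower genes were TRAF family members. Traf4, an adaptor that competes for the ACT1 complex, was at 57.6, 61.5 and 57.7 CPM with siR-1, at 24.2, 23.7 and 21.4 CPM with siR-2 and at 48.2, 49.9 and 49.2 CPM with Scrambled, with -1.35 (SE 0.05, adjusted p = 8.16e-13). For Traf3, a restraining adaptor, the difference was -0.71. Of 24 NF-κB subunits, inhibitors and targets, 3 were higher with siR-2 (12.5%) and none lower (median 0.28), with 15 positive and 4 negative at an unadjusted p under 0.05 and the same counts of calls by DESeq2. The higher genes were Tnfaip6 (TSG-6, a hyaluronan-binding protein, 1.8), Tnfaip2 (0.74) and Bcl3 (an atypical inhibitor of NF-κB, 0.62). Tnfaip6 was at 12.8, 12 and 13.2 CPM with siR-1, at 47.3, 42.9 and 42.1 CPM with siR-2 and at 25.9, 23.6 and 24 CPM with Scrambled, with Scrambled between.

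Of 15 acute-phase and antimicrobial genes, Steap4 (-1.14), a metalloreductase, and Lbp (-0.86), which carries lipopolysaccharide, were lower with siR-2 (13.3%) and none was higher. At an unadjusted p under 0.05, 1 was positive and 6 were negative, and DESeq2 called 2 lower and none higher. In the complement list 1 of 20 genes was higher (5%), Cd55 as above, and 6 were lower (30%, median -0.39). The proteases C1ra (-1.03) and C1s1 (-1.02, with 18.4% of its exonic bases shared with another gene) start the classical pathway, and Cd46 (-0.81) is a membrane cofactor. The prostaglandin list had 4 of 14 genes higher (28.6%), all of synthesis, breakdown or reception: Hpgd, which inactivates prostaglandins (1.6), Ptgs1, cyclooxygenase-1 (0.80), Ptger4, an E2 receptor (0.79), and Pla2g4a, which releases arachidonic acid (0.71). Its 1 lower call, Ptgds, was at 0 to 23 estimated counts with siR-1, against 0 with siR-2, too near the floor for a fold.

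The study follows HIF-1α as a regulator of these inflammatory genes. It places the effect of IAMP on the stability of the protein, and reports more protein after knockdown with the transcript unchanged by qPCR. Only mRNA was measured here, under IL-17, and the siRNAs differed little in that of Hif1a. Hif1a was at 433, 422 and 419.6 CPM with siR-1, against 398, 401 and 407 CPM with siR-2, both above 328, 326 and 330.2 CPM with Scrambled. Between the siRNAs its log2 fold change was -0.081 (SE 0.0249, adjusted p = 0.0132), far inside the size threshold. Of 28 HIF subunits, hydroxylases and targets, 4 were higher with siR-2 (14.3%) and 3 lower (10.7%, near the share of all genes), with a median of 0.27. Plod2, a collagen lysyl hydroxylase, was at 157, 157 and 154 CPM with siR-1, at 430.0, 452 and 431 CPM with siR-2 and at 380.2, 379 and 395 CPM with Scrambled, low in the siR-1 libraries alone, by 1.49 (SE 0.0289, adjusted p = 3.04e-16). Ero1l, an oxidase of the endoplasmic reticulum, ran opposite, at 188, 192 and 189 CPM with siR-1, at 62.9, 66.1 and 64.1 CPM with siR-2 and at 90.5, 93.2 and 93.6 CPM with Scrambled, with -1.56 (SE 0.0304, adjusted p = 3.1e-16). Pfkfb4 (0.79) was higher too and Ak4 (-1.19) lower, as were Ddit4 (0.77) and Bnip3 (0.73) on the higher and Car9 (-1.19) on the lower side, the latter 3 named after their values were seen.

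Of 22 genes of glycolysis and glucose transport, 21 had a positive log2 fold change (median 0.32), but only Aldoc (1.03) was called on that side and Eno2 (-1.46), the neuronal enolase, on the lower, 4.55% each. Their CPM summed to 8450 to 8726 with siR-1, against 10030 to 10280 with siR-2. In the list of HSP90 and heat-shock chaperones, 3 of 26 genes were higher (11.5%) and none lower (median 0.26). At an unadjusted p under 0.05, 18 were positive and 3 negative, and DESeq2 called 3 and none. The HSP90 genes themselves stayed inside the threshold, Hsp90aa1 at 0.27 (SE 0.0311, adjusted p = 1.37e-06) and Hsp90ab1 at 0.34 (SE 0.0263, adjusted p = 8.91e-09). Hsf2, a heat-shock factor (1.11), Hsph1, an HSP110 chaperone (0.98), and Ahsa1, the activator of the HSP90 ATPase (0.74), were called. Ahsa1 was at 83.5, 80.3 and 79.7 CPM with siR-1, against 78.2, 82.6 and 82.7 CPM with Scrambled, and at 129.7, 139 and 138 CPM with siR-2 alone above them.

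More matrix and contractile genes were called lower than higher with siR-2. Of 41 collagens and matrix proteins, 15 were lower and 3 higher (36.6% and 7.32%), against 9.62% and 6.07% of all genes, with a median of -0.48. Fn1, fibronectin, was at 10933, 10777 and 10222 CPM with siR-1, at 3511, 3385 and 3455 CPM with siR-2 and at 8278, 8329 and 8377 CPM with Scrambled. Its siR-2 libraries were the lowest group and its siR-1 libraries the highest, with -1.63 (SE 0.0279, adjusted p = 7.08e-17). Col12a1, a fibril-associated collagen, was at 1332, 1364 and 1251 CPM with siR-1, while siR-2 at 511, 514 and 479.5 CPM and Scrambled at 502, 490.5 and 526 CPM overlapped. Col6a3, a microfibrillar collagen, was lowered in steps, from 80.7, 76.8 and 81.9 CPM with Scrambled over 32, 27.8 and 31.2 CPM with siR-1 to 11, 10.9 and 11 CPM with siR-2. Postn, periostin, was lower (-0.88 (SE 0.0295, adjusted p = 2.36e-13)).

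The major fibrillar collagens went apart. Col1a1 was at 4792 ± 137 CPM with siR-1, against 3204 ± 85.3 CPM with siR-2 (each ± SD of 3 libraries), a difference of -0.58 (SE 0.0282, adjusted p = 2.56e-11) that lay just inside the threshold, and past it without siR-1 replicate 3 (-0.61). Col3a1, at 5405 ± 151 and 8214 ± 280 CPM, was higher with siR-2, by 0.60 (SE 0.0288, adjusted p = 2.02e-11), and fell just inside the threshold, at 0.57, without siR-2 replicate 3. Dcn, decorin (0.90), and Prg4, lubricin (1.43), were the other higher members. Prg4 stood at 25.9, 23.9 and 25.8 CPM with siR-1, at 65.3, 70.3 and 68.5 CPM with siR-2 and at 8.98, 11.8 and 10.9 CPM with Scrambled.

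Of 25 contractile genes of myofibroblasts, 10 (40%) were lower with siR-2 and none higher (median -0.36). At an unadjusted p under 0.05, 20 were negative and 1 positive, and DESeq2 called 10 lower and none higher. Acta2, smooth muscle α-actin and the usual myofibroblast marker, was at 1084, 1028 and 1098 CPM with siR-1, at 526, 517 and 523 CPM with siR-2 and at 901, 879.7 and 901 CPM with Scrambled. It was lower than Scrambled with siR-2 and higher with siR-1, and the siRNAs differed by -1.04 (SE 0.0282, adjusted p = 1.82e-14). Tagln (-1.54), which shares 67.9% of its exonic bases with another gene, Synpo2 (-1.14), a filament-bundling protein, and Tpm2 (-1.08), a tropomyosin, were lower as well. Among 31 TGF-β ligands, receptors, SMADs and Id genes, 8 were lower (25.8%) and 1 higher (3.23%, median -0.087). Inhba, the activin A subunit (-0.99), Ltbp2 (-1.18), which binds microfibrils, the signal transducer Smad3 (-0.93) and the inhibitory Smad6 (-1.05) were among the lower genes. The higher one was the type II receptor Tgfbr2 (0.62), named after its value was seen.

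Among 27 matrix-degrading proteases and inhibitors, 2 were higher (7.41%) and 6 lower (22.2%, median -0.27). Adamts5, an aggrecanase, was at 137, 142 and 134 CPM with siR-1, at 393, 447 and 418 CPM with siR-2 and at 131, 142 and 137 CPM with Scrambled, with 1.61 (SE 0.0424, adjusted p = 1.32e-14). Adamts12, which cleaves cartilage proteins, was at 63.8, 67.5 and 63.5 CPM with siR-1, at 18.1, 18.9 and 18.6 CPM with siR-2 and at 9.53, 10.5 and 10.2 CPM with Scrambled, with -1.81 (SE 0.0516, adjusted p = 3.19e-14). For Adamts5 the siR-1 and Scrambled libraries overlapped and all siR-2 libraries lay above them, and Adamts12 was highest with siR-1. Mmp12 (0.78, named after its value was seen) was the other higher gene, and Mmp10 (-0.99) and Mmp23 (-0.79) were among the lower ones.

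In coagulation and fibrinolysis 3 of 19 genes were higher (15.8%) and 5 lower (26.3%, median -0.30). F3, tissue factor, was at 33.9, 30.8 and 32.1 CPM with Scrambled, 387, 371 and 376 CPM with siR-1, against 190.1, 193 and 173 CPM with siR-2, a log2 fold change of -1.03 (SE 0.0404, adjusted p = 1.78e-12). Serpinb2, plasminogen activator inhibitor 2, was at 11.5, 9.89 and 11.5 CPM with Scrambled, 62.8, 56.9 and 62.9 CPM with siR-1, against 182, 176 and 175 CPM with siR-2, with 1.54 (SE 0.0496, adjusted p = 1.4e-13). Both genes were above Scrambled in every knockdown library, F3 more so with siR-1 and Serpinb2 more so with siR-2. Thbd, thrombomodulin (1.06), was higher and Tfpi2 (-1.34), an inhibitor of serine proteases in the matrix, lower. Named after their values were seen, Procr (0.71) was higher and F2rl1 (-0.93) and F13a1 (-0.81) were lower. In the IGF axis 8 of 14 genes were lower (57.1%) and 1 higher (7.14%, median -0.72), with the growth factor Igf1 (-1.03) and the receptor substrates Irs1 (-0.94) and Irs2 (-1.15) among the lower and the binding protein Igfbp5 (0.94) higher. Irs1 shares 30.9% of its exonic bases with another gene.

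**Figure D4:**
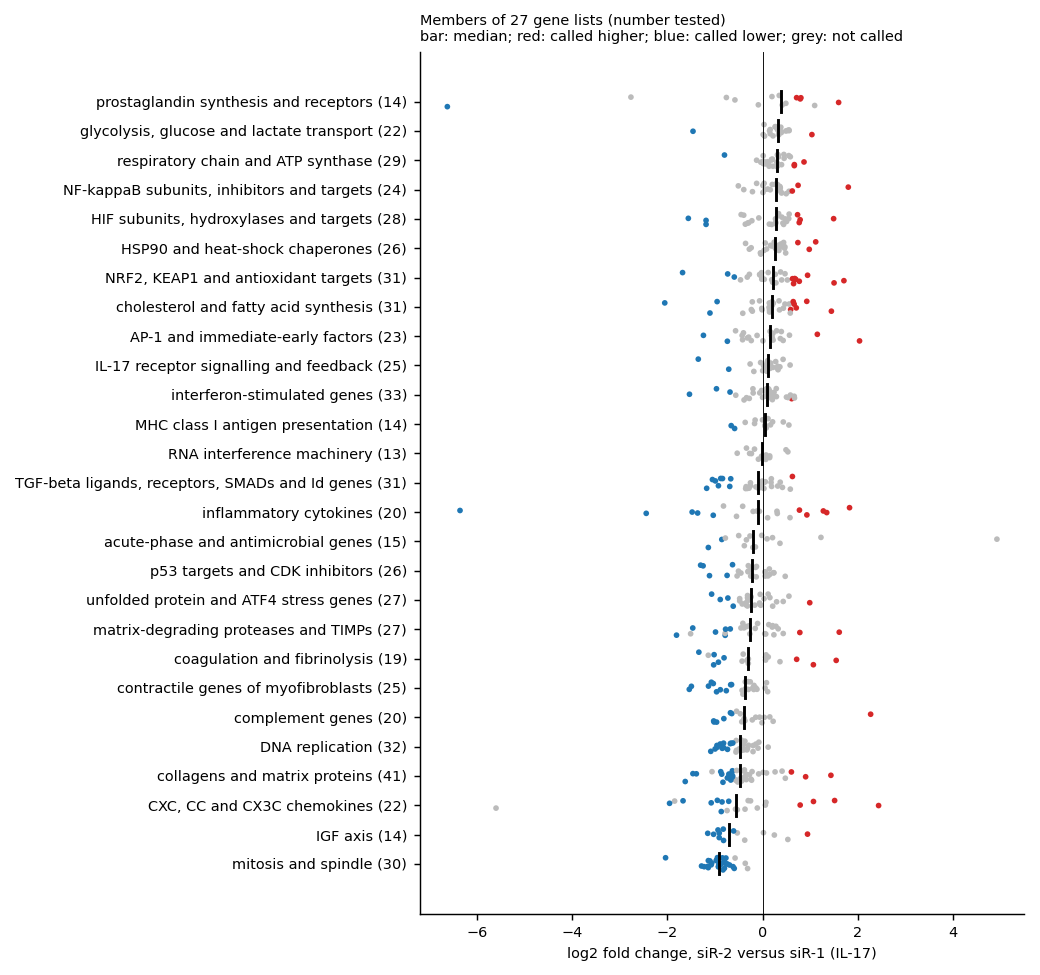
Log2 fold change between siR-2 and siR-1 under IL-17 for each tested member of 27 gene lists, with lists ordered by their median (black bar) and the number of members tested in brackets. Points are coloured by call, and the mitosis list lies lowest (median -0.91) and the prostaglandin list highest (median 0.38).

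Genes of cell division were lower with siR-2 almost throughout. Of 30 genes of mitosis and the spindle, 27 (90%) were lower and none higher, and all 30 had negative values, with a median of -0.91. DESeq2 also called 27 lower and none higher, and at an unadjusted p under 0.05 all 30 were negative. Mki67, the proliferation antigen Ki-67, was at 264, 249 and 275 CPM with Scrambled, 158, 144 and 142 CPM with siR-1, against 70.8, 64.8 and 64 CPM with siR-2, with -1.15 (SE 0.0484, adjusted p = 2.25e-11). Prc1, which bundles the spindle midzone, followed the same steps, at 177, 182 and 182 CPM, 117, 107 and 114 CPM and 48.6, 48.7 and 46.8 CPM. The largest difference in the list was in Nuf2, a kinetochore subunit, at 48.6, 46.6 and 48.3 CPM, 31.8, 28.5 and 31.4 CPM and 7.73, 8.05 and 6.56 CPM, with -2.04 (SE 0.071, adjusted p = 3.78e-13). The mitotic checkpoint kinase Ttk had a log2 fold change of -1.28. In these genes both siRNAs lay below Scrambled, and siR-2 below siR-1. In bulk RNA, fewer dividing cells and less RNA per cell cannot be told apart.

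In the DNA replication list 12 of 32 genes were lower (37.5%) and none higher, with a median of -0.47. At an unadjusted p under 0.05, 30 were negative and none positive, and DESeq2 called 12 and none. The licensing factor Cdt1 (-1.09), the methylation reader Uhrf1 (-1.0), the helicase cofactor Cdc45 (-0.96) and the primase Prim1 (-0.95) were lowest. Among p53 targets and CDK inhibitors, which restrain the cycle, 5 of 26 were lower (19.2%) and none higher (median -0.23), with 6 positive and 15 negative at an unadjusted p under 0.05 and the same calls by DESeq2. The lower genes were Eda2r (-1.3), Zmat3 (-1.25), Btg2 (-1.12), Sesn1 (-0.75) and, named after its value was seen, Bbc3 (-0.63).

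Of 31 genes of NRF2, KEAP1 and antioxidant targets, 8 were higher with siR-2 (25.8%) and 3 lower (9.68%, near the share of all genes, median 0.21). By the adjusted p alone, with no size threshold, 18 rose and 6 fell. Hmox1, haem oxygenase 1, was at 255, 279.9 and 266 CPM with Scrambled, 1686, 1722 and 1633 CPM with siR-1, against 508, 522 and 541 CPM with siR-2, with -1.68 (SE 0.0353, adjusted p = 7.2e-16). G6pdx, the entry enzyme of the pentose phosphate pathway, was at 162, 163 and 161 CPM, 236, 229 and 216 CPM and 443, 441 and 427 CPM, with 0.94 (SE 0.0313, adjusted p = 2.08e-13). Both genes lay above Scrambled in all knockdown libraries, but in opposite order. The glutathione transferases Gsta4 (1.71) and Gsta1 (1.5) were higher with siR-2. The other 2 lower genes, named after their values were seen, were the cystine transporter Slc7a11 (-0.73) and the ferritin heavy chain Fth1 (-0.60).

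Of 31 sterol and lipid genes, 6 were higher (19.4%) and 3 lower (9.68%, near the share of all genes, median 0.20). By the adjusted p alone, 21 rose and 6 fell. Mvd (1.44) and Hmgcs1 (0.93), enzymes of the mevalonate pathway, were higher. Hsd17b7, which acts later in cholesterol synthesis, was at 118, 116 and 110.4 CPM with siR-1, at 117, 114 and 116 CPM with Scrambled and at 27, 26.7 and 29.4 CPM with siR-2, so that siR-2 alone stood apart, by -2.05 (SE 0.0406, adjusted p = 3.68e-16). Abca1 (-1.11), the cholesterol exporter, was also among the lower genes. In the respiratory chain 26 of 29 genes had positive values (median 0.30), but 3 were called higher (10.3%), Sdhb (0.87), Ndufs7 (0.67) and Ndufv2 (0.66), and Sdhd (-0.80), another subunit of complex II, was called lower. Without siR-2 replicate 3, Ndufs7 was inside the threshold at 0.55.

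Of 27 genes of the unfolded protein and ATF4 responses, 4 were lower (14.8%) and 1 higher (3.7%), the chaperone Dnajb9 (0.99). The lower ones were Chac1 (-1.07), Ddit3 (-0.89), Pdia4 (-0.73) and, named after its value was seen, Atf6 (-0.62). Among 33 interferon-stimulated genes, 3 were lower (9.09%, near the share of all genes) and 1 higher (3.03%), with a list median of 0.10. Gbp7 (-1.54), Ifit2 (-0.97) and Gbp2 (-0.69) were the lower genes and Oas2 (0.61) the higher one. These genes varied within the Scrambled group, Gbp7 for instance at 51.5, 54 and 33.1 CPM, and Gbp2 and Oas2 each lost their call when some single libraries were left out (adjusted p of Gbp2 0.0792 without siR-2 replicate 3, and of Oas2 0.0938 without siR-1 replicate 2). Of 14 MHC class I genes, Psmb8 (-0.66) and H2-Q4 (-0.59, adjusted p = 0.0351) were lower (14.3%) and none higher. At an unadjusted p under 0.05, 3 were positive and 5 negative. DESeq2 called 1 of the list lower and none higher, with H2-Q4 just inside the threshold, and an overlap of 19.1% with another gene makes H2-Q4 uncertain.

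Of 23 AP-1 and immediate-early factors tested, 2 were higher and 2 lower (8.7% each, near the shares of all genes), and 19 were not called. Fos was at 9.86, 9.78 and 8.13 CPM with Scrambled, 4.51, 3.82 and 3.62 CPM with siR-1, against 9.65, 8.46 and 8.38 CPM with siR-2, with 1.15 (SE 0.109, adjusted p = 1.18e-07). Its relative Fosb was lower with siR-2 (-1.24), as was their partner Jun (-0.74), and Egr3 was higher as given above. In the RNA interference machinery, which every siRNA engages, none of 13 genes was called in either direction by edgeR or DESeq2, with 4 positive and 5 negative at an unadjusted p under 0.05 and a median of -0.024.

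The libraries carried the defining transcripts of CFs. Of 18 fibroblast markers all were tested, and their summed CPM was 15670 to 16070 with siR-1, against 14120 to 14350 with siR-2. Pdgfrb (-1.47), the platelet-derived growth factor receptor β, and the transcription factor Meox1 (-1.41) were among 5 lower markers, and Dcn and Hand2 (0.86, named after its value was seen) were the 2 higher ones. Of 12 cardiomyocyte markers 5 were tested and none was called. Myh6, Myh7, Myl2, Myl3 and Mb were at or under the floor in all 9 libraries, and Actc1, Pln and Nppa in 8. Tnni3 and Ryr2 were at or under it in 2 libraries each. Ttn was above it in all 9, at 0.358 to 0.706 CPM. Tnnt2 made up nearly all of that list's sum, 32.41 to 35.59 CPM with siR-1, against 23.47 to 25.71 CPM with siR-2. Macrophage markers summed to 71.61 to 76.74 CPM with siR-1, against 83.22 to 91.48 CPM with siR-2, with Ptprc, Adgre1 and Itgam at 0.351 to 2.04 CPM. Most of that sum was Lyz2, at 39.1 to 43.9 and 44.5 to 48.8 CPM, and Csf1r, at 14.6 to 15.3 and 19.5 to 21.8 CPM, neither called. Of 13 macrophage markers tested, 9 had a positive log2 fold change, none was called higher and 1 was called lower. That was Fcgr1, which lay at 24 to 28 estimated counts with siR-1, against 0 to 6 with siR-2. Endothelial markers summed to 100.3 to 105.0 and 92.37 to 98.2 CPM, smooth muscle and pericyte markers to 112.8 to 118.3 and 83.79 to 92.0 CPM, epicardial markers to 219.7 to 228.7 and 142.3 to 147.4 CPM, and Schwann cell markers to 17.11 to 19.75 and 23.3 to 26.62 CPM. Of 8 epicardial markers 4 were lower, Lrrn4 (-1.23), Krt19 (-0.69), Upk3b (-0.65) and the retinoic acid enzyme Aldh1a2 (-0.63), and the part of these cell types in the results was not tested.

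The same comparison in untreated CFs gave a similar picture from separate libraries, with 1126 genes higher (5.72% of 19669 tested) and 1995 lower (10.1%). Among genes tested in both tables, 793 of the 1190 genes higher under IL-17 were also called higher there, 66.6% of the IL-17 genes and 71.5% of the untreated ones, and 1434 of the 1884 lower genes were called lower, 76.1% and 72.5%. No gene was called in opposite directions by edgeR. Of the 3074 genes called under IL-17, 4 had the opposite sign at an unadjusted p under 0.05 in untreated cells, and DESeq2 called 3 genes oppositely. The median log2 fold change of the IL-17 genes was 0.86 and -0.93 under IL-17 and 0.74 and -0.86 without it. Over 13030 genes of at least 1 CPM the Pearson correlation of the log2 fold changes was 0.893, as a description across genes that share their libraries.

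With TGF-β the siRNAs differed less, with 167 genes higher (0.84% of 19891) and 620 lower (3.12%). Of the genes higher under IL-17, 50 of 1182 were also higher there (4.23%, and 31.2% of the 160 TGF-β genes), and of those lower, 273 of 1879 (14.5%, and 45.3% of 603). Of 3061 genes called under IL-17 and tested in both tables, 709 had the opposite sign with TGF-β, 230 of them at an unadjusted p under 0.05. Both tables called 36 genes in opposite directions by edgeR, and DESeq2 called 41. The medians of the IL-17 genes with TGF-β were 0.12 and -0.30. The mitosis list had a median of -0.46 with TGF-β against -0.91 under IL-17, the IGF axis -0.23 against -0.72, and collagens and matrix 0.045 against -0.48. Of the 24 genes with the largest differences, Capza2 (1.08), Nrk (-1.32) and Chp1 (-1.31) were the ones that also differed at least 2-fold with TGF-β. Cd55, in contrast, was at -0.086 and Serpinb1a at 0.055.

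Whether the difference between the siRNAs itself changed with the stimulus was tested as an interaction in a fit of 18 libraries, 9 of each of 2 tables. Each stimulus has a table of its own, so stimulus and table cannot be told apart. The TGF-β libraries held 104139670 to 108379622 estimated counts and 2.87% to 3.67% mitochondrial counts, both outside the range of the IL-17 libraries. Between IL-17 and untreated cells, 10 genes had a difference that was more positive under IL-17 by at least 1 on the log2 scale (0.0471% of 21219) and 7 a more negative one (0.033%). Between IL-17 and TGF-β, 450 were more positive (2.08% of 21685) and 346 more negative (1.6%). Cxcl1 led the named genes: it was -1.67 between the siRNAs under IL-17 and 0.031 in untreated cells, an interaction of -1.69 (SE 0.157, adjusted p = 8.38e-05). With TGF-β the siRNAs differed by -0.28 in Cxcl1. Cxcl1 was thus lower with siR-2 than with siR-1 in the IL-17 table and nearly level between the siRNAs in the untreated one. Il6 was 0.57 under IL-17 and 1.44 in untreated cells, an interaction of -0.86 (SE 0.0568, adjusted p = 8.57e-10) that stayed inside the threshold of 1.

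Serpinb2 also differed less between the siRNAs under IL-17 than in untreated cells, 1.54 against 2.65, an interaction of -1.1 (SE 0.137, adjusted p = 0.000326). Psd3, an exchange factor for ARF GTPases, was at 1.33 against 2.67, with -1.33 (SE 0.079, adjusted p = 1.43e-10). The metalloproteinase Mmp10 was at -0.99 against 0.19, with -1.17 (SE 0.221, adjusted p = 0.00522), and Rnf122, a ubiquitin ligase, at -0.67 against 0.54. In the positive direction, Pag1, a membrane adaptor that recruits CSK, was at 0.55 under IL-17 and -0.76 without it, and A4galt, which makes the glycolipid Gb3, at 0.76 and -0.33. Interactions of these last 3 genes were -1.20, 1.32 and 1.09. Several of the remaining genes, such as Tldc2, Ctnna3 and Trank1, averaged under 1 CPM.

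**Figure D5:**
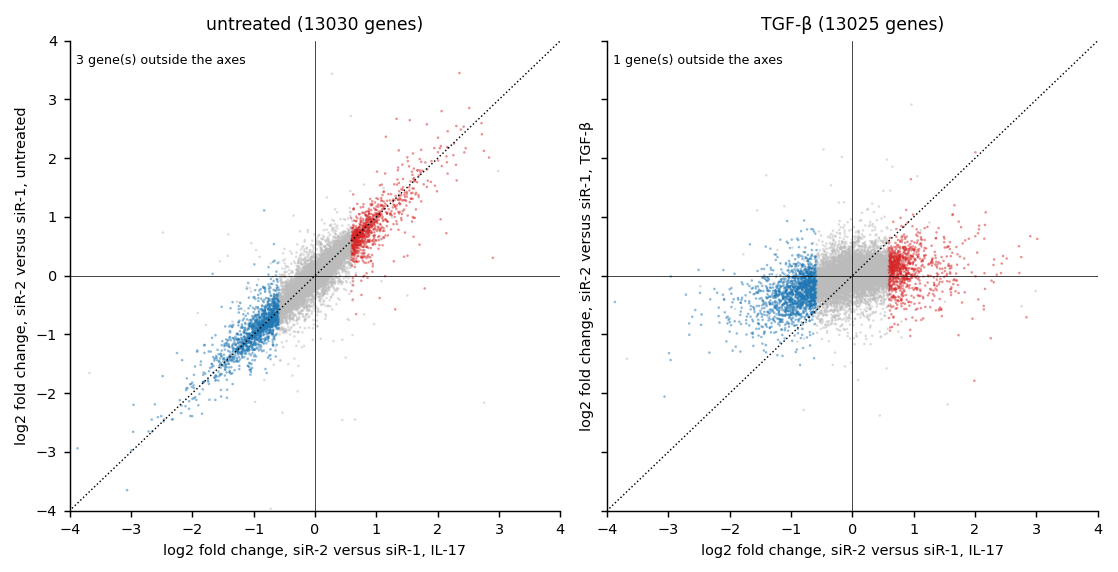
Log2 fold change between siR-2 and siR-1 in untreated CFs (left) and TGF-β-treated CFs (right) against the same under IL-17, 1 point per gene of at least 1 CPM, coloured by the call under IL-17, with the line of equal values dotted. Untreated values follow the line (slope 0.882 over 13030 genes), and TGF-β values lie closer to 0 (slope 0.222 over 13025 genes).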

How the data were processed

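Total RNA was isolated with Trizol from mouse CFs and sequenced on a BGI/MGI platform, with 3 libraries for each of Scrambled, siR-1 and siR-2 under each stimulus. Per the labels, the authors trimmed reads with cutadapt, aligned them to GRCm38 with HISAT2 and quantified them with StringTie. The deposited values are whole numbers without normalization for 55487 genes and were read as estimated counts, since genes seen in 1 IL-17 library only (3896) most often held the value 6, as if 1 read pair stood for 6. Whether strand was used, which annotation was counted and how coverage became whole numbers were not given in the sources used here. GENCODE vM21 on GRCm38 held 55227 of the identifiers.

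Analyses used R 4.3.3, edgeR 4.0.16 and DESeq2 1.42.0. Each table of 9 libraries was fitted in edgeR (TMM scaling, low genes removed by filterByExpr, robust quasi-likelihood dispersions), and siR-2 was tested against siR-1 with Benjamini-Hochberg adjustment over all genes tested. A call needed an adjusted p no higher than 0.05 together with a 1.5-fold difference. Standard errors come from dividing the log2 difference by the square root of F. Interactions used the 18 libraries of 2 tables in 1 fit, at a difference of at least 1. The median biological coefficient of variation under IL-17 was 10.7%. Same-numbered libraries did not deviate together (correlations -0.069 to 0.0013 under IL-17), and the numbers were not taken as pairs.

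Named genes are 4930523C07Rik, the genes the study names for fibroblasts, the 12 largest rises and 12 largest falls among called genes with non-overlapping groups, at least 5 CPM and an ordinary symbol, up to 4 called members of at least 1 CPM in each gene list, and up to 6 interactions each way under the same conditions. The comparison, lists (755 of 756 entries matched) and rule were chosen with earlier results of these data known, and the heptamer count was added after seeing the values. A duplicated symbol was read from its highest-count identifier. Alternatives were DESeq2, RLE size factors, 2 other filters, division by 6, a threshold of 1, the 6 libraries alone, a replicate block and leaving out each library. Scripts were tested on simulated data. Intervals and floors cover counting error only. The hearts of the series were not analysed here.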

Additional observations from a re-analysis of the deposited data

Results flagged for a closer look

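The difference between siR-2 and siR-1 was not the same in the IL-17 table as in the untreated table for a few genes, and as in the TGF-β table for many, each by a test of the difference itself in edgeR over the 18 libraries of both tables. Stimulus and table cannot be told apart. Relative to untreated CFs, 10 genes had a more positive and 7 a more negative difference under IL-17 by at least 1 on the log2 scale. Relative to TGF-β-treated CFs, 450 were more positive and 346 more negative.

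Against untreated cells, the interaction was -1.69 for Cxcl1, -1.33 for Psd3, -1.20 for Rnf122, -1.17 for Mmp10 and -1.10 for Serpinb2. It was positive for Pag1, at 1.32, and for A4galt, at 1.09. Leaving out 1 untreated library brought Mmp10 to -0.99 (without siR-2 replicate 1) or A4galt to 1.00 (without siR-1 replicate 1), each just inside the threshold.

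Against TGF-β, Cxcl1 (-1.38) and Cxcl5 (-1.04), the neutrophil-attracting chemokines, had a more negative difference under IL-17. Postn, periostin, was at -1.18 and Mmp10 at -1.59. Serpinb2 (1.53) and Psd3 (1.46) had more positive ones. Groups of 3 libraries were not searched for single outlying values, and the effect of leaving out each library is given with the processing.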

How the results depend on the processing

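Under every alternative named in the methods the called counts of siR-2 against siR-1 under IL-17 stayed within 1.5 times, except for the higher threshold. At an absolute log2 fold change of 1, the counts of higher and lower genes were 452 and 832 under IL-17, 441 and 867 in untreated cells and 49 and 181 with TGF-β. With a 1.5-fold threshold for the interactions they were 29 and 19 against untreated cells and 1003 and 1018 against TGF-β. DESeq2 called 1282 and 1946 under IL-17 and shared 3066 genes with the 3122 of edgeR, and the 6 libraries alone gave 1250 and 1806. After division by 6, 6 genes instead of 10 were more positive than in untreated cells. Leaving out single libraries gave 1120 to 1222 higher and 1782 to 1919 lower genes under IL-17. It gave 6 to 12 more negative interactions against untreated cells, with 12 without siR-2 replicate 2 of the IL-17 table.

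With the replicate block 1174 genes were higher and 1852 lower, 2984 of these 3026 shared with the fit without it. Among named genes the block changed 1 call, that of H2-Q4 (adjusted p = 0.0706). For the named genes 2291 values kept their direction and side of the threshold, 19 passed it, 25 lost it and none reversed. List counts moved by over 1.5 times in 51 of the alternatives tried and held in 1037, and list medians moved in 23 and held in 521. The heptamer shares with the shortest annotated 3′ UTR, chosen after seeing the data, were 10.4% against 2.84% and 10.1% against 3.85%, and both words still ranked first.

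Depth limits S100a8, Csf3, Tnf and the scarcest macrophage markers, such as Fcgr1, at few read pairs per library. Gene overlaps limit Brms1, Ptp4a1, Tagln and Irs1. Each group has 3 libraries, and whether they are separate cultures is not stated.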

Other observations

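Adamts4, an aggrecanase whose siRNA groups overlapped under IL-17, had an interaction of 1.08 with a log2 fold change between the siRNAs of -0.34 under IL-17 and -1.41 in untreated CFs (SE of the interaction 0.134, adjusted p = 3.02e-05 by edgeR). Sox11, a transcription factor at a mean of 1.72 CPM over the 12 knockdown libraries, was at 1.31 and -0.57 (interaction 1.89, SE 0.39, adjusted p = 0.0112). Both were chosen after their values were seen.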
